A study of Mus musculus with 2 samples.

Results

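The genes described here encode lectin-type pattern recognition molecules and a protease that works with them: Colec10, Colec11, Colec12, Fcna and Masp1. They were taken by name, and all 5 were among the 31054 features counted. Transcripts were counted per cell in a hepatic stellate cell (HSC) isolate from male mice on a C57BL/6 background after 4 weeks of carbon tetrachloride (CCl4), a hepatotoxin that leads to fibrosis. HSCs are the mesenchymal cells of the liver that store vitamin A. All of the mice also received tamoxifen and diphtheria toxin. There were 2 libraries, 1 per genotype. The p16-LRTD mice carried p16-CreERT2 together with the R26-CAG-LSL-RSR-tdTomato-2A-DTR allele, so that the toxin receptor stayed behind a Dre-dependent stop, and they served as controls. The p16-Alb-LRTD mice carried the same alleles and Alb-DreERT2, whose Dre recombinase is driven by the albumin promoter, so that hepatocytes with high p16 expression carried the receptor and were eliminated. The cells came from an enzyme perfusion and a density gradient for HSCs, so the endothelial and Kupffer cells described are those that remained in an HSC isolate. The labels give no age, and the number of mice behind each library was not stated. With 1 library per genotype there is no replicate, no p-value is given, and every interval below covers counting error only. A difference between the libraries and a difference between the genotypes cannot be told apart.

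In the lectin pathway of complement, soluble recognition molecules bind sugars or acetylated groups on microbes and dying cells through a globular head and carry serine proteases, the MASPs, along a collagen-like stalk. Collectin-10 (Colec10, also called CL-L1) and collectin-11 (Colec11, CL-K1) are such soluble collectins and can form mixed oligomers. Ficolin-A (Fcna) is a soluble recognition molecule with a fibrinogen-like head. Masp1 gives rise by alternative splicing to MASP-1, the protease that starts the cascade, and to MASP-3 and MAp44, which have other roles. Collectin-12 (Colec12, CL-P1) differs from the others in being a membrane-bound scavenger receptor with a collagen-like stalk and a lectin head.

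The promoters of Fcna and Colec11 are shown because these were the 2 of 5 members with an entry in the RefSeq promoter table. They are also the soluble members with the highest and the lowest ratio between the libraries in stellate cells. Each sequence runs 5′ to 3′ along the gene's own strand, from 250 bases before to 50 bases after the RefSeq transcription start in GRCm38.p6. Capitals mark GAGGAA, the core of motifs bound by PU.1, an ETS-family factor of macrophages.
Fcna, chr2:25627925-25628224, minus strand: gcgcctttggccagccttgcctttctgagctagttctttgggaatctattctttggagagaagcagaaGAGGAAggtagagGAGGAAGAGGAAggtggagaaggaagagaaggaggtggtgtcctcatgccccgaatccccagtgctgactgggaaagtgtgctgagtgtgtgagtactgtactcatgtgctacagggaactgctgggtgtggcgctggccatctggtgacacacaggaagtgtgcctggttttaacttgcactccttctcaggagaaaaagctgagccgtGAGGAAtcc
Colec11, chr12:28623281-28623580, minus strand: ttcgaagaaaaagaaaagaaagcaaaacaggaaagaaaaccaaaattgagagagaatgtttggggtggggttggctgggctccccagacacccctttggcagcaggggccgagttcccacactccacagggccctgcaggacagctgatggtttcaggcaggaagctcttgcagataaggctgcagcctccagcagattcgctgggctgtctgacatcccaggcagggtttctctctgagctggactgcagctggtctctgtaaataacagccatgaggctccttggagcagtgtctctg

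The Fcna window held GAGGAA 4 times, with no match overlapping another, and the Colec11 window held it on neither strand. A match on either strand was present in 28.3% of the 32851 promoter windows of the same length. The TATA box letters TATAAA (13.6% of all windows), the homeodomain core TAATTA (5.29%) and AGAACA, a half-site of the glucocorticoid receptor (19.0%), were found in neither window on either strand. These matches describe the letters of the windows and are not evidence of binding. Colec10, Colec12 and Masp1 had no promoter entry.

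The 5 genes lie on 5 chromosomes of the mouse genome, in the GRCm38 build (mm10) and the GENCODE vM21 annotation. Colec10 (ENSMUSG00000038591) spans chr15:54410774-54466358 on the plus strand, and Colec11 (ENSMUSG00000036655) spans chr12:28594173-28623377 on the minus strand. Colec12 (ENSMUSG00000036103) spans chr18:9707595-9882644 on the plus strand. Fcna (ENSMUSG00000026938) is a compact gene at chr2:25624666-25628030 on the minus strand. Masp1 (ENSMUSG00000022887) spans chr16:23449417-23520815 on the minus strand and has 3 protein-coding transcripts in the annotation, which the deposited gene-level counts merge. The values for Masp1 below are therefore not values of MASP-1, MASP-3 or MAp44 separately.

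The study's limits on barcodes kept 9004 in p16-LRTD and 7416 in p16-Alb-LRTD, with medians of 17177 and 18273 UMIs (unique molecular identifiers, each standing for 1 captured transcript). Stellate cells were taken as barcodes with at least 15 UMIs of Lrat, Ecm1, Hgf and Reln together per 10000 UMIs and below the gates of the other classes. This gave 7852 cells and 6621 cells, holding 142651137 and 125115995 UMIs. Endothelial cells, with at least 8 UMIs of Kdr, Stab2 and Ptprb per 10000, numbered 430 and 283. Kupffer cells, the resident macrophages of the liver, had at least 8 UMIs of Clec4f, Cd5l, Vsig4 and Csf1r per 10000 and numbered 283 and 178. Further barcodes passed more than 1 gate (245 and 221) or none (194 and 113) and were kept apart. A class cut from such a score is a range, but few cells lay close to the cuts: 52 and 35 barcodes were within 20% of the stellate cut, 9 and 3 of the endothelial cut and 21 and 9 of the Kupffer cut. In stellate cells the median endothelial and Kupffer scores over cells were both 0. The median stellate score was 2.12 and 3.49 per 10000 in the endothelial class and 1.97 and 1.75 in the Kupffer class. Of the 3 classes, each stellate, endothelial and Kupffer marker outside the gates stood highest in its own, but not all were confined to it. Dcn, a proteoglycan of stellate cells, stood at 18430 and 22186 CPM (counts per 1000000 UMIs of the class, p16-LRTD first) in the stellate class and at most 319 in the other classes. Pecam1, an adhesion molecule of endothelium, stood at 619 and 660 CPM in the endothelial class and at 62.7 and 125 in the Kupffer class. C1qa, a complement component of macrophages, stood at 3317 and 4058 in the Kupffer class and at most 19.8 in the other classes. Cdh5, another endothelial marker, stood at 978 and 919 in the endothelial class and at 361 and 530 in the Kupffer class. Eng, on the same list, stood at 1190 and 1122 in the endothelial class and at 376 and 410 in stellate cells. Between the libraries 95 barcode sequences were shared, 18 of them among the kept barcodes, and none had identical counts.

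Levels below are in CPM, for p16-LRTD first, with exact 95% Poisson intervals in parentheses. They are 3′ end counts, 1 per captured transcript, and so are not divided by gene length. In a sum over cells, fewer cells with the transcript and less transcript per cell cannot be told apart, so shares of cells follow the levels.

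In stellate cells 4 members, Colec11, Masp1, Colec10 and Fcna, were abundant. Colec11 was the most abundant member there, at 3222 (3212 to 3231) and 2725 (2716 to 2734) CPM. Masp1 stood at 1364 (1358 to 1370) and 1294 (1287 to 1300). Colec10 stood at 1059 (1054 to 1065) and 1010 (1004 to 1016). These 3 transcripts had UMIs in nearly every stellate cell: 99.97% and 99.95% of cells for Colec11, 99.99% and 99.98% for Masp1, and 98.2% and 98.1% for Colec10.

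Fcna stood at 852 (847 to 856) CPM in stellate cells of p16-LRTD and at 1429 (1423 to 1436) in those of p16-Alb-LRTD. In p16-LRTD it was the lowest of the 4 soluble members, and in p16-Alb-LRTD it was above Masp1 and Colec10. Colec12, the membrane-bound member, stood at 14.1 (13.5 to 14.8) and 12.1 (11.5 to 12.8) in the same cells, less than a hundredth of Colec11.

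Kupffer cells held another pair of members. Fcna stood at 736 (715 to 758) and 865 (838 to 893) CPM, and Colec12 at 541 (522 to 560) and 553 (531 to 575). Colec10, Colec11 and Masp1 stood between 8.05 and 38.2 in Kupffer cells, which was 0.622% to 1.29% of their stellate cell levels. The 8 stellate marker genes that took no part in the gates stood in Kupffer cells at 0.583% to 1.66% of their stellate level in p16-LRTD and 0.180% to 2.09% in p16-Alb-LRTD. The values of Colec10, Colec11 and Masp1 in Kupffer cells thus lay within the range that stellate transcripts in general reached there, and they are read here as background and not compared between the libraries.

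Endothelial cells had 1 member above that background in both libraries. Masp1 stood at 233 (221 to 246) and 203 (189 to 217) CPM, 17.1% and 15.7% of its stellate cell level, where the stellate markers reached 1.16% to 5.24% in p16-LRTD and 0.808% to 5.60% in p16-Alb-LRTD. Masp1 UMIs were present in 86.0% and 84.1% of endothelial cells, against 27.2% and 20.2% of the more deeply sequenced Kupffer cells. Colec10, Colec11 and Fcna in endothelial cells stood at 1.40% to 2.24% of their stellate levels, within the range of the stellate markers, and Colec10 and Colec11 were read as background. Fcna, which Kupffer cells carry as well, stood at 1.70% and 2.58% of its Kupffer level. Colec12 stood at 21.8 (18.2 to 25.8) and 41.9 (35.8 to 48.8) CPM, which was 4.03% and 7.58% of its Kupffer level, while 8 Kupffer marker genes stood in endothelial cells at 0.167% to 4.61% of theirs in p16-LRTD and 0.169% to 1.52% in p16-Alb-LRTD. Colec12 and Fcna therefore lay within the range of the Kupffer markers in p16-LRTD, where Marco reached 4.61% and Lyz2 2.07%, and above it in p16-Alb-LRTD.

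The order of levels over classes differed by member. Colec10, Colec11 and Masp1 were highest in stellate cells and Colec12 in Kupffer cells in both libraries. Fcna was shared: its stellate level was 116% (112% to 119%) of its Kupffer level in p16-LRTD and 165% (160% to 171%) in p16-Alb-LRTD.

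**Figure D1:**
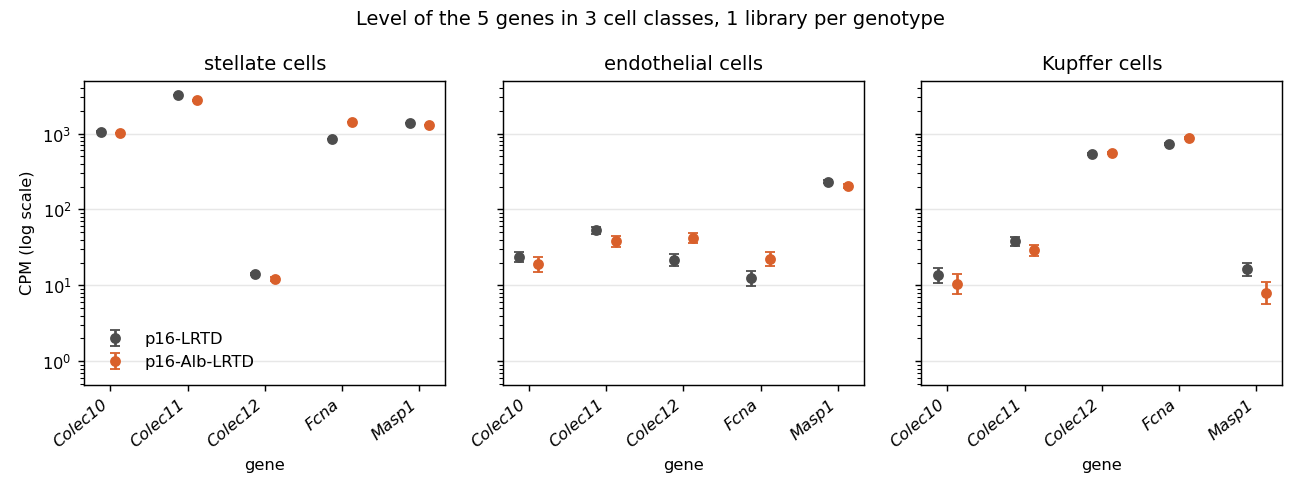
Levels of the 5 genes in stellate, endothelial and Kupffer cells, as CPM on a log axis, with points for the p16-LRTD (grey) and p16-Alb-LRTD (orange) libraries and bars for exact 95% Poisson intervals. The 4 soluble members sit between 852 and 3222 in stellate cells, Masp1 alone passes 200 in endothelial cells, and Fcna and Colec12 pass 500 in Kupffer cells.

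Every cell was then thinned to 5000 UMIs, which takes away differences in depth. In stellate cells 99.5% and 99.7% of cells had a Colec11 UMI, 99.1% and 99.4% a Masp1 UMI and 91.5% and 93.3% a Colec10 UMI. In endothelial cells 64.4% (59.6% to 68.9%) and 51.6% (45.6% to 57.5%) had a Masp1 UMI, lower in p16-Alb-LRTD, while at 3000 UMIs the shares were 44.0% and 44.2%. For Fcna the share was 82.8% (81.9% to 83.6%) in p16-LRTD and 91.4% (90.7% to 92.1%) in p16-Alb-LRTD, with exact Clopper-Pearson 95% intervals that did not overlap. Unthinned, these shares were 95.1% and 97.7%. As background, 6.46% and 8.13% of endothelial cells thinned in the same way had a Fcna UMI. Colec12 UMIs were found in 4.08% and 4.54% of thinned stellate cells (9.36% and 9.44% unthinned), below the 8.13% and 12.4% of thinned endothelial cells. In thinned Kupffer cells 80.2% and 87.6% had a Fcna UMI and 37.4% and 40.7% a Colec12 UMI (94.3% and 98.9%, and 43.8% and 50%, unthinned). Thinning left out at most 16 cells of a class in a library.

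The comparison between the libraries asks whether these transcripts differed in the non-hepatocyte cells after removal of p16-high hepatocytes. Fcna in stellate cells was 1.68-fold higher in the p16-Alb-LRTD library (log2 ratio 0.75, 0.74 to 0.76). It was the 1 member of 5 past 1.5-fold in stellate cells, in the direction where 3.03% of the 10179 genes of at least 5 CPM stood past that fold. With equal shares of the collagen bins described below its log2 ratio was 0.43, short of 1.5-fold. In the other direction 3.05% of genes and no member did. The log2 ratio of Fcna lay above those of 98.1% of these genes.

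Colec11 was lower in stellate cells of p16-Alb-LRTD, with a log2 ratio of -0.24 (-0.25 to -0.24), and 17.5% of the genes lay below it. Colec10 and Masp1 had log2 ratios of -0.07 (-0.08 to -0.06) and -0.08 (-0.09 to -0.07). The median over all genes tested was -0.05, and Colec10 and Masp1 stood close to it. Colec12 had a log2 ratio of -0.22 (-0.32 to -0.12). With equal shares of the collagen bins the ratios were -0.42 for Colec10, -0.51 for Colec11 and -0.19 for Masp1, and Colec12 turned to 0.94. The mean over cells gave -0.028 for Colec12. Of the members 1 stood higher and 4 lower, with a median log2 ratio of -0.08, where 39.3% of all genes tested lay above 0.

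In Kupffer cells Fcna had a log2 ratio of 0.23 (0.17 to 0.30) and Colec12 one of 0.03 (-0.04 to 0.11), against a median of -0.06 over 9514 genes. Neither was past 1.5-fold, where 5.21% of genes were higher and 6.83% lower. Masp1, read as background in this class, was the 1 member past the fold, on 97 and 36 UMIs. Fcna in Kupffer cells depended on the cells taken, with log2 ratios from 0.03 in cells of 10000 to 30000 UMIs to 0.29 after scaling by the median of ratios. Median depth differed between the libraries in this class, at 19514 and 25102 UMIs per cell, and its part in these values was not tested beyond that range.

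In endothelial cells Masp1 had a log2 ratio of -0.20 (-0.33 to -0.08) and Colec12 one of 0.95 (0.61 to 1.28), the latter on 134 and 167 UMIs. The 4 genes of the infiltrating macrophage list summed to 16.1 and 72.3 CPM in this class, most of it Spp1 (15.4 and 64.5). Ly6c2 stood at 0 and 7.28, Ccr2 at 0.162 and 0.251, and Chil3 was lower, at 0.487 and 0.251. The Kupffer list summed to 148 and 95.7, with 1 of its 4 measured genes above 0 and 3 below. The B cell list summed to 11.9 and 0.251. The part of such cells in the Colec12 ratio was not tested. Colec12 and Fcna, the latter on 77 and 89 UMIs, were the 2 members past 1.5-fold. Fcna stood there at 1.47% and 1.56% of its stellate level, within the range of the stellate markers. The part of stellate RNA in its ratio was not tested, and its ratio was not run under the alternative settings. In this class 6.44% of 9858 genes were higher and 13.5% lower by 1.5-fold, the median was -0.10, and TMM scaling changed the counts from 635 higher and 1332 lower to 843 and 1032. Both values turned over when barcodes that also passed another gate were included, to 0.32 for Masp1 and -0.32 for Colec12. Of barcodes passing both the stellate and the endothelial gate there were 180 and 197, in which stellate Masp1 is counted as well.

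**Figure D2:**
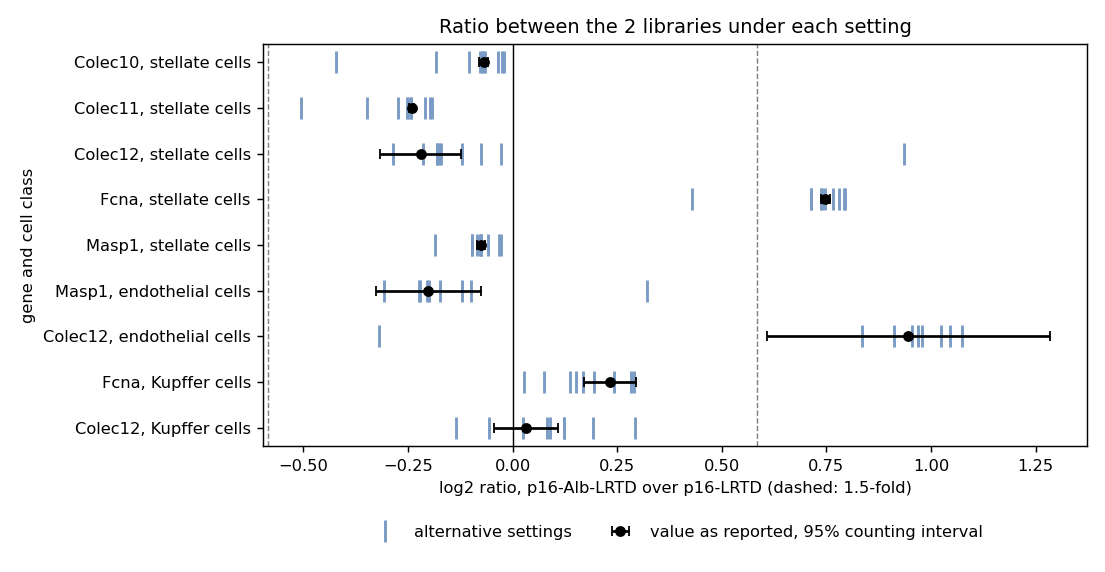
Log2 ratio of p16-Alb-LRTD over p16-LRTD for each gene and cell class compared, with the value as reported (black, 95% counting interval) and each alternative setting (blue ticks). Fcna in stellate cells lies between 0.43 and 0.80 under every alternative shown, Colec10, Colec11 and Masp1 in stellate cells stay below 0, and Colec12 in stellate cells turns from -0.22 to 0.94 when collagen bins are given equal shares in both libraries.

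Over single stellate cells the members differed in spread. Masp1 was even: its 5th, 50th and 95th percentiles over cells were 5.55, 13.7 and 22.6 UMIs per 10000 in p16-LRTD and 5.71, 12.8 and 20.5 in p16-Alb-LRTD. Fcna was uneven, at 0.30, 5.92 and 27.2 in p16-LRTD and 0.843, 11.3 and 38.4 in p16-Alb-LRTD. All 3 points of the Fcna distribution were higher in p16-Alb-LRTD, and cells with at least 16 UMIs per 10000 made up 16.5% and 36.0% of stellate cells. The tenth of cells with the most Fcna UMIs held 34.5% and 29.6% of them, against 20.5% and 19.8% for Masp1.

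Colec11 shifted the other way at its upper end. Its 95th percentile was 66.3 UMIs per 10000 in p16-LRTD and 50.6 in p16-Alb-LRTD, and its median 34.6 and 25.6, while its 5th percentile was 7.47 and 9.10. Colec10 showed the same narrowing, with a 95th percentile of 24.3 and 19.7 and a 5th percentile of 0.970 and 1.34. The libraries thus crossed: the cells with the least Colec10 and Colec11 had more of them in p16-Alb-LRTD and the cells with the most had fewer.

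**Figure D3:**
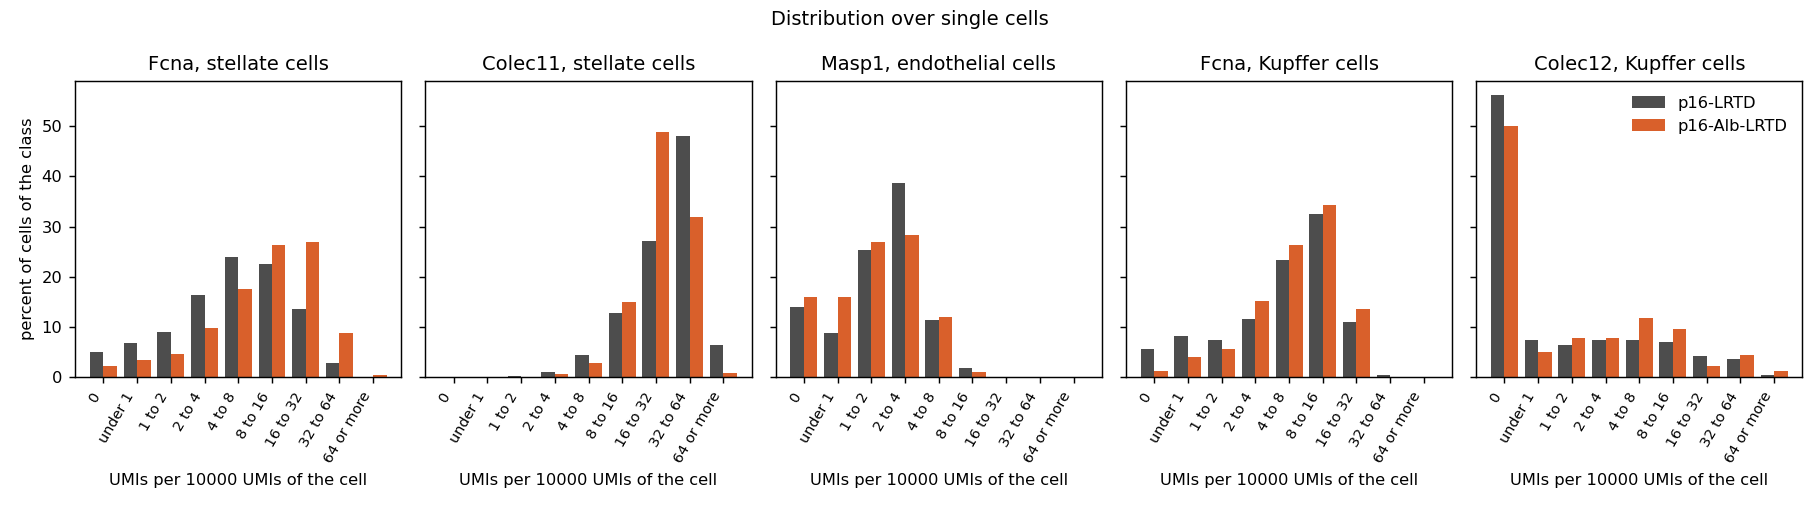
Percent of cells of a class (bars, from 0) in classes of UMIs per 10000 UMIs of the cell, for p16-LRTD (grey) and p16-Alb-LRTD (orange). In stellate cells of p16-Alb-LRTD more cells lie at 16 or more for Fcna, while for Colec11 more lie at 16 to 32 (48.8% against 27.1%) and fewer at 32 to 64 (31.9% against 48.0%) and at 64 or more. No Colec12 UMI was counted in 56.2% and 50% of Kupffer cells, whose median depth was not the same in the libraries.

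Stellate cells in CCl4-treated liver range from quiescent cells to collagen-producing cells, so the members were followed over 4 bins of summed Col1a1, Col1a2 and Col3a1, cut at the quartiles of both libraries pooled (14.3, 23.1 and 51.0 UMIs per 10000). The highest bin held 2891 cells (36.8% of stellate cells) in p16-LRTD and 728 cells (11%) in p16-Alb-LRTD. Over all stellate cells Col3a1 stood at 4085 and 1343 CPM, Col1a2 at 2318 and 1004 and Col1a1 at 1950 and 504, which is 3.04-fold, 2.31-fold and 3.87-fold lower in p16-Alb-LRTD.

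Colec10 and Colec11 were lower in cells with more collagen. From the lowest to the highest bin, Colec10 went from 1674 to 520 CPM in p16-LRTD and from 1272 to 453 in p16-Alb-LRTD, a 3.22-fold and a 2.81-fold difference. Colec11 went from 4528 to 1910 and from 3305 to 1711, a 2.37-fold and a 1.93-fold difference. Both were lower at each step over the 4 bins in both libraries.

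Masp1 was much flatter. It stood at 1468, 1497, 1544 and 1177 CPM over the 4 bins of p16-LRTD and at 1371, 1353, 1268 and 1007 in p16-Alb-LRTD, a 1.25-fold and a 1.36-fold difference between the outer bins.

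With these cuts the profile of Fcna differed between the libraries. It stood at 1106, 1145, 1113 and 493 CPM in p16-LRTD, level over 3 bins and lower in the highest. In p16-Alb-LRTD it stood at 1771, 1677, 1175 and 565, lower at each step. The log2 ratio between the libraries was 0.68 (0.66 to 0.70), 0.55 (0.53 to 0.57), 0.08 (0.06 to 0.10) and 0.20 (0.16 to 0.23) from the lowest bin to the highest. With both libraries given the same shares of the bins, the log2 ratio of Fcna was 0.43, short of 1.5-fold, instead of 0.75.

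Colec12 ran the other way. It stood at 0.843, 1.41, 4.72 and 29.7 CPM from the lowest to the highest bin in p16-LRTD and at 1.82, 5.24, 15.8 and 47.4 in p16-Alb-LRTD. It was higher in p16-Alb-LRTD within each bin, with log2 ratios of 1.11 (0.39 to 1.88), 1.89 (1.37 to 2.45), 1.74 (1.47 to 2.02) and 0.67 (0.54 to 0.80), the first on 22 and 65 UMIs. With equal shares of the bins its log2 ratio turned from -0.22 to 0.94.

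The 2 collectins that looked nearly level or slightly lower over all stellate cells were lower within every bin. Colec10 had log2 ratios of -0.40, -0.48, -0.49 and -0.20 from the lowest bin to the highest, and -0.42 with equal shares against -0.07 over all cells. Colec11 had -0.45, -0.62, -0.64 and -0.16, and -0.51 with equal shares against -0.24. Masp1 had -0.10, -0.15, -0.28 and -0.23, and -0.19 with equal shares against -0.08.

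Bins cut at the same collagen values need not hold like cells when collagen itself differed between the libraries, so bins were also cut at the quartiles of each library, a view added after the data had been seen. From the lowest to the highest of these bins, Colec10 had log2 ratios of -0.38, -0.36, 0.10 and 0.51, Colec11 -0.44, -0.53, -0.24 and 0.30, Masp1 -0.10, -0.15, -0.17 and 0.06 (0.04 to 0.08) and Fcna 0.67, 0.59, 0.63 and 1.07. Fcna was thus higher in p16-Alb-LRTD in every bin of both schemes. Its profiles were more alike with these cuts, at 1115, 1150, 922 and 376 CPM in p16-LRTD and 1776, 1725, 1430 and 790 in p16-Alb-LRTD. Colec10 and Colec11 were lower in the 2 bins with the least collagen in both schemes. With bins cut within each library, Colec10 was higher in p16-Alb-LRTD in the upper 2 bins and Colec11 and Masp1 in the highest, whereas with common cuts all 3 were lower in every bin. Colec12 had 1.25 and 0.74 in the lower bins and -0.18 (-0.38 to 0.03) and -0.08 (-0.20 to 0.04) in the upper bins, so its higher level within bins depended on how they were cut.

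**Figure D4:**
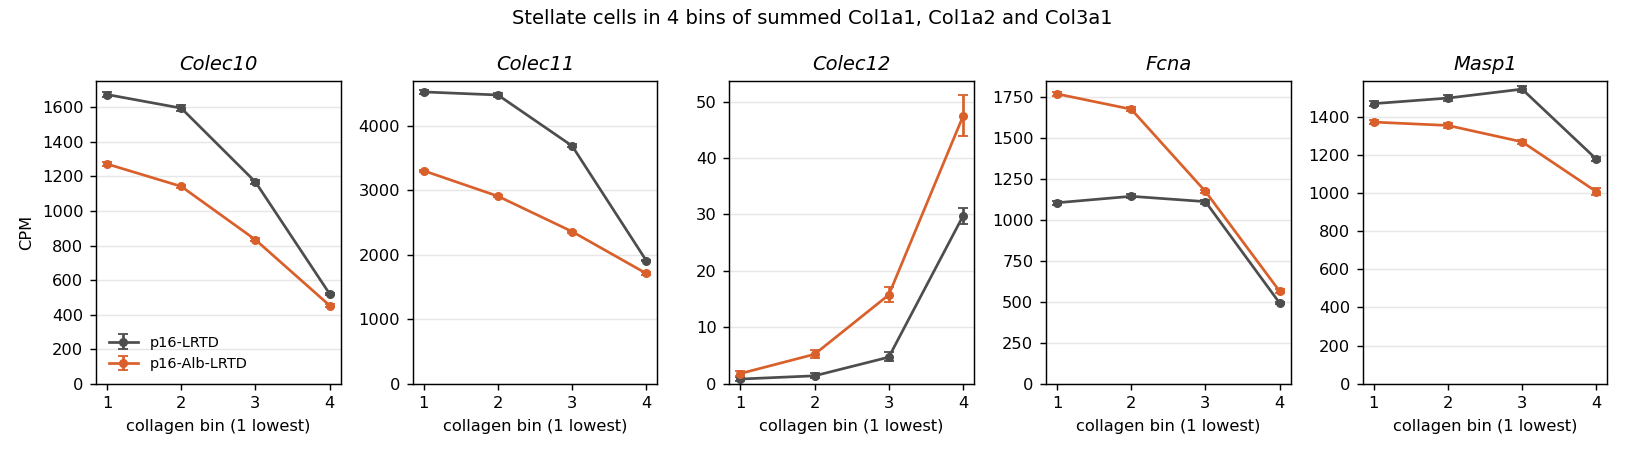
Level of each gene (CPM, axis from 0) in 4 bins of stellate cells from the lowest (1) to the highest (4) summed collagen, for p16-LRTD (grey) and p16-Alb-LRTD (orange), with exact 95% Poisson intervals. Colec10 and Colec11 are lower in bins with more collagen, Masp1 is at its lowest, 1177 and 1007, in the highest bin, Fcna is level over 3 bins of p16-LRTD, and Colec12 reaches 29.7 and 47.4 in the highest.

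Across single stellate cells the members' likeness was measured by Pearson's r of log2 values per 10000 UMIs plus 1, over 7852 and 6621 cells and averaged over the libraries. Cells of a library share its depth and preparation, so these values are descriptions. Colec10 and Colec11 were the closest pair of members (mean r 0.65, from 0.74 in p16-LRTD and 0.55 in p16-Alb-LRTD). Masp1 had a mean r of 0.44 with Colec10, 0.45 with Colec11 and 0.37 with Fcna. Fcna had 0.39 with Colec10 and 0.42 with Colec11. Within single libraries, correlation with the log2 of total UMIs was between -0.35 and 0.06 for these 4 genes. For Colec10 and Colec11 it was -0.29 and -0.35 in p16-LRTD, and 0.04 and 0.05 in p16-Alb-LRTD.

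Among 3453 other genes of at least 50 CPM in both libraries, gate genes left out, the most similar to Colec10 were Angptl6 (mean r 0.71), Tmem56 (0.69) and Vipr1 (0.67), the last a receptor for vasoactive intestinal peptide. For Colec11 they were Sod3 (0.81), an extracellular superoxide dismutase, Angptl6 (0.76) and Vipr1 (0.71). For Fcna they were Rgs5 (0.56), a regulator of G protein signaling found in pericytes, Plvap (0.52) and Angptl6 (0.51). For Masp1 they were Rgs5 (0.50), Tmem56 (0.48) and Angptl6 (0.47). Angptl6, which encodes a secreted angiopoietin-like protein, was thus among the 3 nearest genes of each of the 4 members. Col1a1 was the least similar gene of all to Colec10 (mean r -0.66) and had -0.59 with Colec11, -0.42 with Fcna and -0.31 with Masp1. Tgfbi, a matrix protein gene, had a mean r of 0.44 with Fcna and stood at 1312 and 1747 CPM. Its mean r of 0.10 with Colec10 came from -0.05 in p16-LRTD and 0.24 in p16-Alb-LRTD. G0s2, an inhibitor of lipolysis, had a mean r of 0.21 with Fcna (0.14 and 0.29) and 0.34 with Colec11 (0.27 and 0.42). It stood at 647 and 770 CPM.

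Colec12 UMIs in the stellate class were held by few cells. There were 240 cells (3.06%) in p16-LRTD and 202 cells (3.05%) in p16-Alb-LRTD with 3 or more Colec12 UMIs, a limit chosen after the data had been seen, and they held 68.8% and 64.7% of the Colec12 UMIs of the class. These cells had a median of 22365 and 20554 UMIs, against 16884 and 18040 in the rest. Wt1, a transcription factor of mesothelial cells, stood in them at 467 and 395 CPM against 26.3 and 30.9 in the other stellate cells. Dpt, a matrix gene of portal fibroblasts, stood at 391 and 232 against 46.8 and 22.4, and Col1a1 at 7285 and 1908 against 1731 and 454. The other 4 genes of the fibroblast and mesothelial list were also higher in them in p16-LRTD, at 22.9 against 1.20 CPM for Igfbp6, 13.7 against 0.131 for Gpm6a, 4.97 against 0.0657 for Msln and 6.03 against 0.292 for Upk3b. In p16-Alb-LRTD they stood at 1.39 against 0.323, 0 against 0.058, 0 against 0.0166 and 0.693 against 0.190.

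The same cells were low in the soluble collectins, with Colec11 at 945 and 1206 CPM against 3315 and 2780, and Colec10 at 231 and 326 against 1093 and 1035. The macrophage transcript C1qa was no higher in them, at 5.68 and 4.16 CPM against 7.46 and 5.90. Whether they are stellate cells or fibroblasts that pass the stellate gate was not tested. Under gate thresholds doubled to 30, 16 and 16 per 10000, Colec12 in stellate cells had a log2 ratio of -0.08.

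A set outside the gates also held Colec12. Of the barcodes past no gate, 109 in p16-LRTD and 39 in p16-Alb-LRTD had at least 5 UMIs per 10000 of the fibroblast and mesothelial list (Dpt, Msln, Upk3b, Gpm6a, Wt1 and Igfbp6). They carried Colec12 at 254 (235 to 273) and 224 (198 to 253) CPM, below Kupffer cells and above stellate and endothelial cells. Their Colec11 stood at 119 and 87.2 and their Fcna at 13.7 and 18.3. Of the genes that chose them, Igfbp6 (875 and 536), Wt1 (718 and 542) and Dpt (223 and 194) stood lower in p16-Alb-LRTD, and Gpm6a (105 and 172), Upk3b (158 and 174) and Msln (24.0 and 66.3) higher.

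In the Kupffer class Colec12 was held by a part of the cells. Cells with a UMI of Timd4, a phosphatidylserine receptor of long-lived resident Kupffer cells, numbered 138 of 283 (48.8%, 42.8% to 54.8%) and 100 of 178 (56.2%, 48.6% to 63.6%). There Colec12 stood at 990 (953 to 1027) and 986 (947 to 1025) CPM. In cells without a Timd4 UMI it stood at 133 (121 to 147) and 6.07 (3.14 to 10.6). Colec12 UMIs were found in 73.2% and 84.0% of cells with a Timd4 UMI and in 15.9% and 6.41% of cells without one. Median depth was close between these cells, at 19250 against 19689 UMIs in p16-LRTD and 24840 against 25611 in p16-Alb-LRTD.

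Fcna was less divided by Timd4. It stood at 990 and 1042 CPM in cells with a Timd4 UMI and at 506 and 642 in cells without, and 89.7% and 100% of the latter had a Fcna UMI. Marco, a class A scavenger receptor related in build to Colec12, followed the pattern of Colec12, at 976 and 2533 with Timd4 and 82.8 and 107 without. Msr1, another class A scavenger receptor, was less divided, at 708 (677 to 740) and 741 (707 to 775) with Timd4 and 560 (534 to 587) and 711 (674 to 749) without. Within the cells with a Timd4 UMI, Colec12 had a log2 ratio of -0.01 (-0.08 to 0.07), Fcna one of 0.07 (-0.0039 to 0.15) and Marco one of 1.38 (1.31 to 1.44). Within the cells without one, Colec12 had a log2 ratio of -4.45 (-5.42 to -3.63), on 415 UMIs from 23 cells against 12 UMIs from 5 cells, Fcna one of 0.34 (0.24 to 0.45) and Marco one of 0.37 (0.10 to 0.63). Timd4 stood at 195 and 297 CPM in the class. Of the 4 genes of the infiltrating macrophage list, Spp1 was lower in p16-Alb-LRTD in the Kupffer class (313 and 141 CPM), Chil3 higher (3.87 and 30.2), Ccr2 stood at 8.58 and 6.48, and Ly6c2 was at or near 0. The part of this mix of cells in the Fcna ratio of the whole class was not tested beyond these values.

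The rest of the pathway was followed through 24 further genes. The remaining recognition molecules were counted at low levels in all 3 classes: Mbl1, Mbl2, Fcnb, Sftpd and Sftpa1 summed to between 0.325 and 1.26 CPM. Masp2, the protease that cleaves C4, stood at or below 0.487 CPM. Of the lectin pathway genes counted here, the soluble recognition molecules above that level were therefore Colec10, Colec11 and Fcna, and the protease Masp1.

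In stellate cells 10 of the 24 genes reached 5 CPM, 1 of them was past 1.5-fold higher and none lower, where 3.03% of all genes were higher and 3.05% lower. Their median log2 ratio was -0.10 against -0.05 over all genes tested. Of the 10, C1qa, C1qb and C1qc stood at 5.09 to 8.06 CPM, 0.136% to 0.311% of their Kupffer levels, and were read as background, and their log2 ratios of -0.34, -0.51 and -0.42 enter that median. The 1 gene was C4b, the complement C4 gene whose product MASP-2 cleaves, at 95.7 and 150 CPM (log2 ratio 0.65, 0.62 to 0.68). C2, its partner in the C3 convertase, stood at 122 and 144, and C3 at 31.6 and 23.0. Serping1, the C1 inhibitor that also blocks MASPs, was the most abundant of the list in stellate cells, at 1493 and 1411, close to Masp1 itself. C1ra and C1s1, the classical pathway counterparts of the MASPs, stood at 233 and 271 and at 227 and 252.

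In Kupffer cells 12 of the 24 genes were measured, 4 of them past 1.5-fold higher and none lower, where 5.21% of all genes were higher and 6.83% lower. Their median log2 ratio was 0.22 against -0.06 over all genes. The 4 were Marco (508 and 1461 CPM, log2 ratio 1.52), Cfb (9.76 and 26.4, 1.44), which encodes the alternative pathway factor B, C2 (27.2 and 49.2, 0.85) and C1ra (12.8 and 21.9, 0.78). C1qa, C1qb and C1qc, the classical recognition molecule, stood at 2593 to 4058 with log2 ratios of 0.20 to 0.29. The Kupffer marker list, which also holds Marco, C1qa and C1qb, had 3 of 8 genes past 1.5-fold higher, 0 lower and a median of 0.26. The endothelial list summed to 568 and 791 CPM in the Kupffer class, with 1 of its 6 measured genes past 1.5-fold higher and 1 lower. In endothelial cells 11 genes were measured, 2 past 1.5-fold higher and 4 lower, where 6.44% of all genes were higher and 13.5% lower. The higher ones were Serpinc1, which encodes antithrombin, a hepatocyte product (3.57 and 9.29 CPM, log2 ratio 1.38), and C2 (11.7 and 17.8, 0.61). The hepatocyte list summed to 109 and 132 CPM in the endothelial class, with 6 of its 7 measured genes above 0 and a median log2 ratio of 0.50. The lower ones were Marco (23.4 and 3.01), C3 (30.5 and 13.6), Serping1 (40.8 and 17.6) and C1s1 (16.4 and 9.29). Serping1 was at 2.73% and 1.25% of its stellate level, within the range of the stellate markers in both libraries, and C1s1 at 7.23% and 3.69%, within it in p16-Alb-LRTD. Marco, one of the Kupffer markers used for the background above, was at 4.61% and 0.206% of its Kupffer level. Serpinc1 and Marco reached the mean of 5 CPM only through the library in which they were higher, so their place among the called genes follows in part from that limit. In the same class Col1a1 stood at 215 and 5.02 CPM and the fibroblast and mesothelial list at 23.1 and 2.76. The part of RNA from other cells in these ratios was not tested. Msr1, at 423 and 295 (log2 ratio -0.52), was the most abundant gene of the list in endothelial cells.

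**Figure D5:**
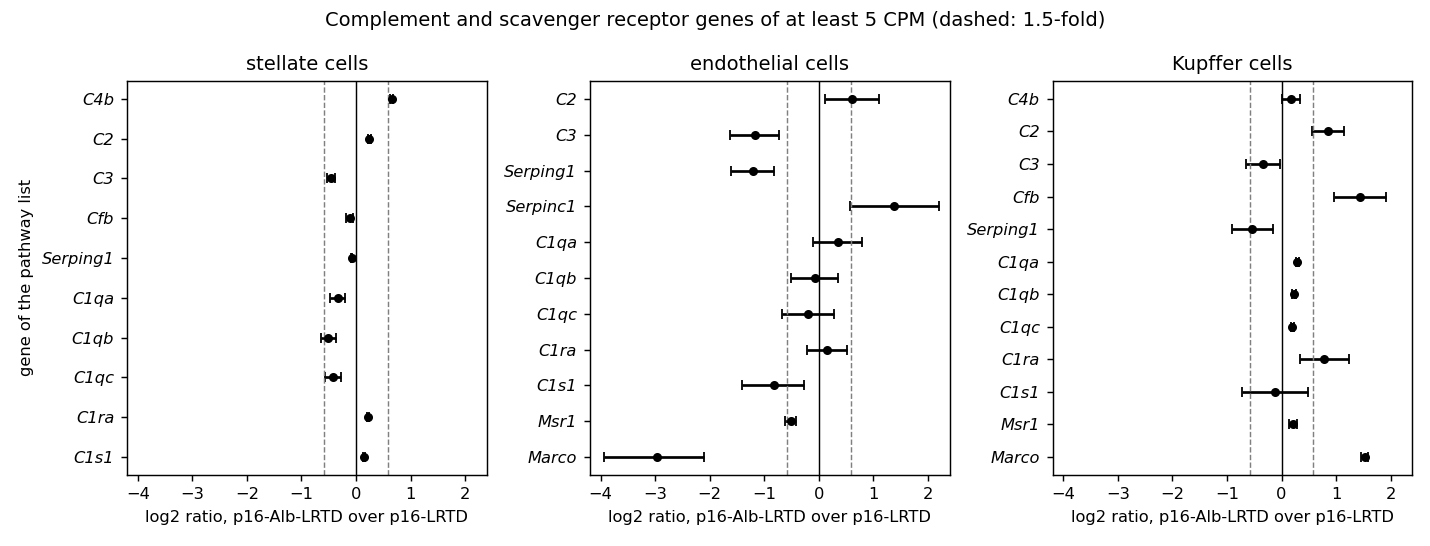
Log2 ratio of p16-Alb-LRTD over p16-LRTD (points, 95% counting intervals) for the genes of the 24-gene pathway list of at least 5 CPM in stellate, endothelial and Kupffer cells, with dashed lines at 1.5-fold. C4b at 0.65 is past the line in stellate cells, and Marco stands at 1.52 in Kupffer cells. The -2.96 of Marco in the endothelial class is that of a Kupffer marker at 4.61% and 0.206% of its Kupffer level.

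Markers of other cell types were checked beside these values. The hepatocyte list of 8 genes summed to 91.5 and 97.7 CPM in stellate cells, most of it Trf (61.0 and 76.2). Of the other genes, Alb (13.0 and 7.46), Apoa1, Ttr, Apoa2, Serpina1c and Fgb were lower in p16-Alb-LRTD, with log2 ratios of -0.07 to -1.45, and Cyp2e1 alone was higher (1.37 and 3.07). The Kupffer list summed to 51.5 and 33.9 there, with none of its 8 genes at 0, and C1qa stood at 0.223% and 0.144% of its Kupffer level. The proliferation list (Mki67, Top2a and Stmn1) summed to 114 and 19.1. Cdkn2a stood at 6.12 and 4.63 CPM in stellate cells and tdTomato, the reporter, at 3.12 and 5.84. Cdkn2a encodes p16 but, as the study points out for the human gene, not p16 alone, so its counts are not p16 levels. Hepatocytes, the cells in which the 2 genotypes were made to differ, were not isolated, so these values do not check the genotype labels.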

How the data were processed

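Raw UMI counts for each gene and barcode were deposited, made per the labels by Cell Ranger 7.0.1 on the mm10 genome, with reads collapsed by UMI. All else was computed here from these counts. After the study's methods, barcodes with over 5% mitochondrial UMIs, under 2000 or over 7000 genes, or over 50000 UMIs were left out. No doublet caller was run; barcodes past more than 1 gate were set apart. Counts were summed per class and library, scaled to CPM, and compared as log2 ratios with exact conditional 95% intervals, checked on simulated counts. Depth was 193746596 and 162219167 UMIs. Genes were called at 1.5-fold among those of at least 5 CPM. Shares were computed after thinning to 5000 UMIs. Pathway genes of at least 5 CPM in a class were named, with the 3 genes most like each member, Cdkn2a, tdTomato, Tgfbi and G0s2. Alternatives included other gates, no filter, TMM (edgeR 4.0.16), per-cell means and equal collagen shares. Python 3.11.15 and R 4.3.3 were used. Sequences came from RefSeq (2 of 5 members matched). The members, lists and alternatives were chosen with earlier results of these data known.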

Additional observations from a re-analysis of the deposited data

Results flagged for a closer look

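The log2 ratio of Colec12 between the libraries had opposite signs in 2 cell classes, 0.95 (p16-Alb-LRTD higher) in endothelial cells and -0.22 in stellate cells, with both counting intervals off 0. The difference between the classes was not tested, since each class has 1 library per genotype. Both signs turned under an alternative setting, given with the processing results.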

How the results depend on the processing

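Of the 9 ratios between the libraries, 5 kept their direction under every alternative tried: Colec10, Colec11, Fcna and Masp1 in stellate cells (10 alternatives each) and Fcna in Kupffer cells (9). Log2 ratios are given below, and a value is printed where it left the counting interval of the reported one.

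Equal collagen shares in both libraries moved stellate cells most, to -0.42 for Colec10, -0.51 for Colec11, 0.43 for Fcna (below 1.5-fold) and -0.19 for Masp1, and turned Colec12 to 0.94. The mean over cells gave stellate -0.18, -0.35, 0.71 and -0.10 for Colec10, Colec11, Fcna and Masp1, and -0.028 for Colec12. It gave 0.076 for Fcna and 0.29 for Colec12 in Kupffer cells. Without the cell filter the values were -0.034 for Colec10, -0.21 for Colec11, 0.78 for Fcna and -0.058 for Masp1 in stellate cells, 0.17 for Fcna and -0.14 for Colec12 in Kupffer cells. Cells with 10000 to 30000 UMIs gave -0.10, -0.27, 0.71 and -0.10 for Colec10, Colec11, Fcna and Masp1 in stellate cells, and 0.028 for Fcna and 0.19 for Colec12 in Kupffer cells. TMM gave -0.024, -0.20, 0.79 and -0.032 and the median of ratios -0.020, -0.19, 0.80 and -0.028 for the same 4 genes in stellate cells.

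Barcodes allowed in several classes gave -0.25 for Colec11 in stellate cells, 0.14 for Fcna and 0.12 for Colec12 in Kupffer cells, and turned Masp1 to 0.32 and Colec12 to -0.32 in endothelial cells. Doubled thresholds gave -0.25 for Colec11 and -0.076 for Colec12 in stellate cells, and 0.15 for Fcna and -0.055 for Colec12 in Kupffer cells. Leaving out the 1% of cells with the most UMIs of the gene, chosen after seeing the data, gave -0.12 for Colec12 and 0.77 for Fcna in stellate cells and 0.12 for Colec12 in Kupffer cells. Stricter limits on the other gates moved none of the 9. The cause of these moves was not tested.

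With genes of at least 1 CPM, 466 were higher and 713 lower by 1.5-fold in stellate cells, 1215 and 2229 in endothelial cells and 979 and 1554 in Kupffer cells. Thinned to 3000 UMIs, the stellate shares in p16-LRTD and p16-Alb-LRTD were 85.4% and 87.2% for Colec10, 98.4% and 99.0% for Colec11, 3.06% and 2.84% for Colec12, 73.8% and 85.4% for Fcna, and 96.5% and 96.1% for Masp1. The endothelial shares were 44.0% and 44.2% for Masp1 and 6.51% and 7.07% for Colec12, a narrower gap than at 5000 UMIs. In Kupffer cells of p16-LRTD they were 74.2% for Fcna and 31.1% for Colec12. No paired analysis was possible because there was a single library of either genotype. Without replicate libraries the spread between mice is unknown, and ratios near 0 here carry no more than counting precision.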
